A study of Homo sapiens with 9 samples.

Results

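The 47 genes described here act in mitosis and on the spindle. They were chosen by name, as the rows of the deposited gene table whose symbol equals a listed mitotic gene. The names, like the role groups and other gene lists used below, were chosen with earlier results of these data known. Counts set beside the share of all genes therefore describe these lists and are not independent support. All 47 were found among the 13745 genes of the table. All 47 also passed the minimum level for testing, a highest value of at least 40, and none was at the floor of 20 in any library. They were sorted by role into 7 kinesins, 5 kinetochore and centromere genes, 6 condensin and chromosome structure genes, 7 genes of the spindle checkpoint and anaphase onset, 6 of mitotic entry, 3 of the chromosomal passenger complex, 9 of spindle assembly and poles, and 4 of cytokinesis.

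RNA was measured by polyA RNA-seq in BJ cells, a human fibroblast line immortalised with hTERT, to ask how loss of a long non-coding RNA, LncRNA-OIS1, changes the senescence that oncogenic RASG12V induces. RASG12V was switched on in cells knocked down for LncRNA-OIS1 in 4 libraries, 1 per hairpin (32-2, 32-3, 32-8 and 32-9, here replicates 1 to 4). It was switched on in cells knocked down for p53 in 1 library and for BRD7, a bromodomain protein, in 1 library. The senescent group had RASG12V and a non-targeting hairpin, 500 in replicate 1 and 507 in replicate 2. Both libraries are titled as controls and their condition labels carry the same control name, so their place in the senescent group rests on the sample descriptions and the stated RASG12V senescence, as do all values set against senescent. The control, 1 library, carried hairpin 500 and was not labelled as having RASG12V activated. Per the labels, every library including the control had 14 days of 4-OHT, whereas the design text describes an untreated control. No label says whether libraries of a group came from separate cultures, so the p-values reflect only the scatter among these libraries and their different hairpins.

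Cells enter mitosis when cyclin B and CDK1 become active, condense their chromosomes, attach them to spindle microtubules through kinetochores, and separate them once the spindle checkpoint is satisfied. Most genes of this machinery are transcribed late in the cell cycle, so their RNA is abundant in dividing cells and scarce in cells that have left the cycle, such as senescent fibroblasts. Transcription of many of them depends on MuvB complexes, which bind promoters holding a cell cycle homology region (CHR) and work with the CCAAT-binding factor NF-Y. In bulk RNA, fewer dividing cells and less RNA per cell cannot be told apart.

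Each value is a normalised read count. After the authors' normalisation all libraries share 1 distribution, with a total of 14916466.5, so depth is unknown and counting error cannot be computed. BRD7 stood at 94.6 in its own library and between 536.6 and 695.3 in the others. The targeted RNA, LncRNA-OIS1, is not analysed here. All 12 mesenchymal marker genes were tested. Their summed level was 162410 to 210614 in the 6 knockdown libraries, 124322 to 142263 in the senescent libraries and 454825 in the control. These sums hide members that moved in opposite directions. Both senescent libraries exceeded the control for VIM (55499 and 48420 against 39745) and S100A4 (11724 and 10997 against 6417). For the other members both were below it. THY1 alone was lower in every knockdown library (2692 to 5618) than in either senescent library (5921 and 5735). With p53 knockdown VIM made up 110361 of the sum of 194943. Of 8 epithelial markers 4 were in the table and 3 were tested. The summed level of the 4, floor values included, was 822.5 to 2125.3 in the knockdown libraries, 1637.5 to 1913.9 in the senescent libraries and 3706.7 in the control. Of 8 leukocyte markers 3 were in the table and 2 were tested. The sum of the 3, floor values included, was 80.2 to 157.7 in the knockdown libraries, 155.2 to 183.9 in the senescent libraries and 216.5 in the control. PTPRC, the defining leukocyte gene, was at the floor in 8 libraries and at 156.6 in the control. CD14, a monocyte marker, went the other way, at 25.1 to 117.7 in the knockdown libraries, 143.9 and 115.2 in the senescent libraries and 39.9 in the control. TIE1, an endothelial receptor and the 1 endothelial marker of 8 tested, stood at 50.8 to 129.1 with LncRNA-OIS1 knockdown, 266.9 with p53 knockdown and 44.9 with BRD7 knockdown, against 40.7 and 37.4 in the senescent libraries and 22.2 in the control. The part of these markers in the results was not tested. Leaving out any senescent or LncRNA-OIS1 library changed the number of genes called between senescent and control libraries. Only without LncRNA-OIS1 replicate 4 did the number rise, to 3899 of 12252 genes tested, against 1878 of 12481 in the full fit.

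The promoters are shown as background to the motifs named above, and their part in the values was not tested. RefSeq promoter windows (GRCh38.p14), 250 bases before to 50 after a start, were matched by symbol for 40 of the 47 genes. RACGAP1, BIRC5, AURKA, UBE2C, FOXM1, TTK and TPX2 were not matched. The first motif searched was CCAAT, on both strands, so that ATTGG counts too. The second was the CHR, spelled TTTGAA and searched on both strands. The spelling TTCGAA counted as a CHR as well. The CHR letters occurred in 33 of the 40 promoters, 82.5%, against 15.8% of the promoters of the 8907 tested genes in the table. CCAAT occurred in 30, 75%, against 43.9%, and at 2 or more places in 19, 47.5%, against 16.4%. Both motifs stood at the same start in 24 promoters, 60%, against 6.62%. CENPE and KIF2C held neither, 5%, against 49% of tested genes. A match describes the letters in the window and does not show that a factor binds there.

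The 130 bases before the start are printed for 8 genes, 5′ to 3′ on the coding strand, with both motifs in capitals. ASPM (chr1:197146670-197146799, minus strand), CCNB2 (chr15:59105016-59105145, plus strand), PLK1 (chr16:23678759-23678888, plus strand), CDC20 (chr1:43358851-43358980, plus strand), KIF4A (chrX:70289974-70290103, plus strand) and CENPA (chr2:26785926-26786055, plus strand) each held both motifs. KIF20A (chr5:138178982-138179111, plus strand) and the first of 2 starts of PTTG1 (chr5:160421725-160421854, plus strand) held CCAAT without the CHR letters. In PTTG1 a CCAAT and an ATTGG overlapped.
KIF20A: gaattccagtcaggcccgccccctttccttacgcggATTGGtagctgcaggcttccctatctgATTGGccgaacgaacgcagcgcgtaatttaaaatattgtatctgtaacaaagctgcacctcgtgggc
ASPM: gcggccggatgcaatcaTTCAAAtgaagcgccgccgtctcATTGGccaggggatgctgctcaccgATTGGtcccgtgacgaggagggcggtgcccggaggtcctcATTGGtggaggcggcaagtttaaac
CCNB2: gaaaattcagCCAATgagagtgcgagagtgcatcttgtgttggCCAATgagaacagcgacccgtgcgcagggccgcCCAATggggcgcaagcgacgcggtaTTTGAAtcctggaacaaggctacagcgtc
PLK1: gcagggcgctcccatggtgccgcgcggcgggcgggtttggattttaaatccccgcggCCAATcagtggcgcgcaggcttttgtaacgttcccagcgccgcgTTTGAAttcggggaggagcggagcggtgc
CDC20: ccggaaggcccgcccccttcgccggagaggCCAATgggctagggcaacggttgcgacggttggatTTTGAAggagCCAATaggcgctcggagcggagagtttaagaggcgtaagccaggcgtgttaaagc
KIF4A: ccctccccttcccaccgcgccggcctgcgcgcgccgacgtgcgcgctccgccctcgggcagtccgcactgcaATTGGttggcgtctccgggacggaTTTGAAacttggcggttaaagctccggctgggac
CENPA: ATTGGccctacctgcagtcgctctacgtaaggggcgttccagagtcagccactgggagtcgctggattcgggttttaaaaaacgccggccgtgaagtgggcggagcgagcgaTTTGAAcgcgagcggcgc
PTTG1: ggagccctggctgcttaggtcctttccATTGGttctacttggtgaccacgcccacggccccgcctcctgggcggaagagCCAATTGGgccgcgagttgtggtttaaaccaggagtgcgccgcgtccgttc
In CCNB2, PLK1, KIF4A and CENPA the CHR letters lie close to the start and downstream of every CCAAT shown, in ASPM they lie upstream of all of them, and in CDC20 they lie between its CCAAT copies.

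Across the 9 libraries the genes moved as a block. The p53 library was the highest of the 9 for 47 of 47 genes, against 17.1% of all genes tested, and a senescent library was the lowest for 47, against 17.4%. All 6 knockdown libraries lay above both senescent libraries for 46, against 14.7% of all genes. The exception was AURKA. Both senescent libraries lay below the control for 45, against 42.8% of all genes, and the exceptions were PTTG1 and AURKA. Relative to the senescent mean, the median of the 47 genes was 0.90, 1.73, 1.19 and 1.41 log2 units higher in LncRNA-OIS1 replicates 1 to 4. It was 2.25 higher with p53 knockdown, 1.70 with BRD7 knockdown and 1.02 in the control. The median of all genes lay between −0.03 and 0.00 in each library.

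**Figure D1:**
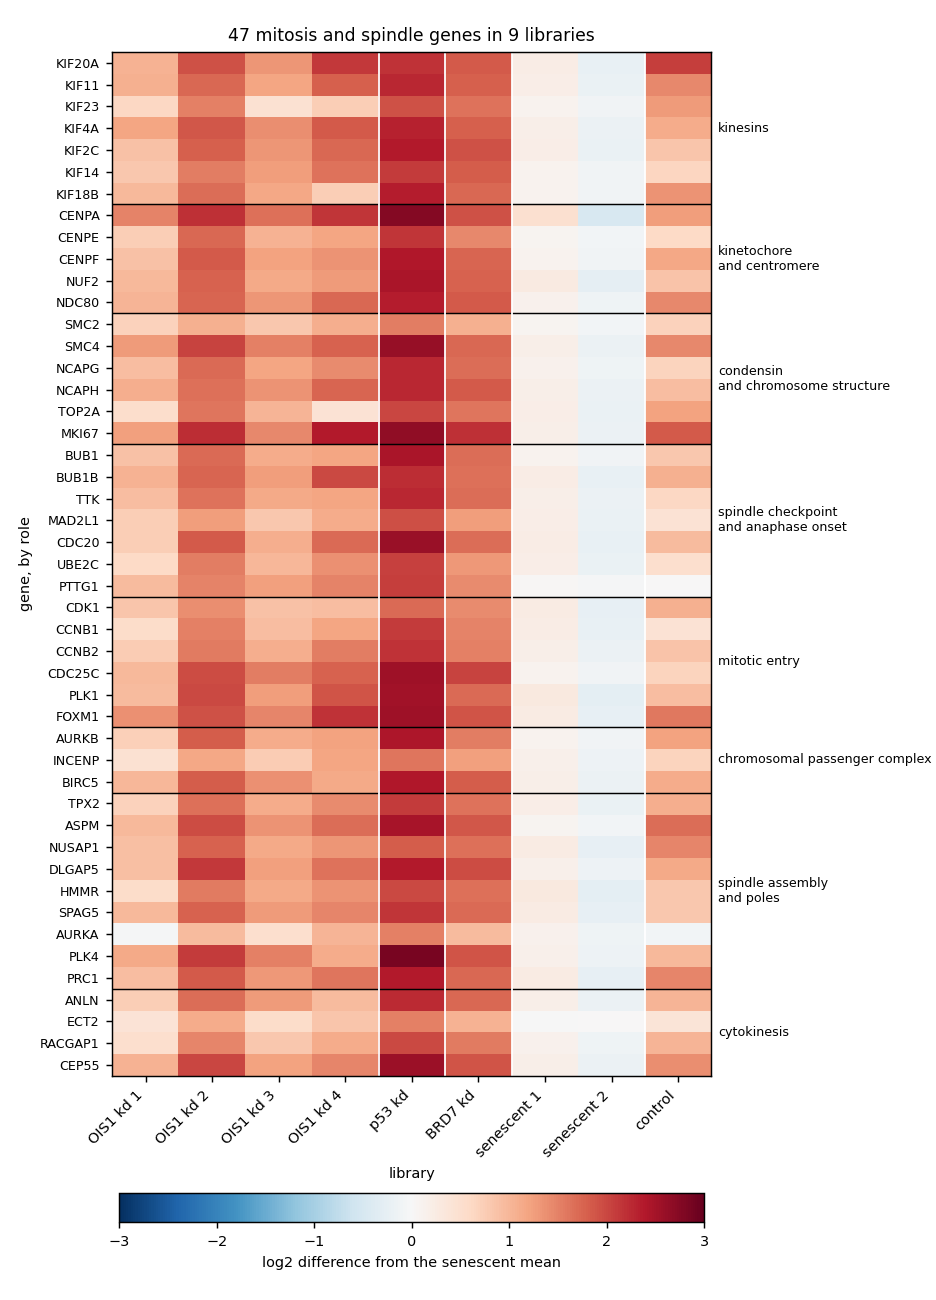
Heatmap of the 47 genes (rows, by role) in 9 libraries (columns), coloured by the log2 difference of each value from the gene's senescent mean. The p53 column is the darkest in every row, and the senescent columns are near 0.

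**Figure D2:**
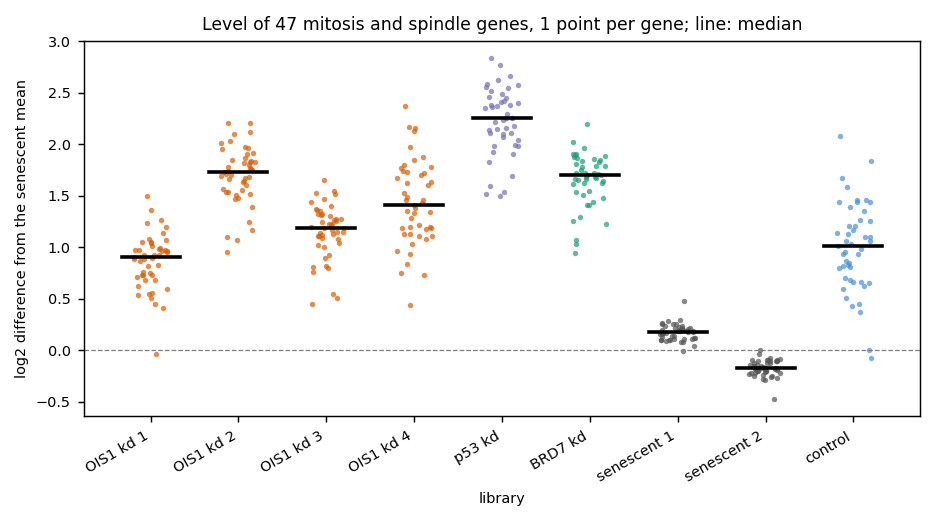
Log2 difference from the senescent mean (y axis) for each of the 47 genes in each library, 1 point per gene, with the median as a bar. Medians were 0.90 to 1.73 in the LncRNA-OIS1 libraries, 2.25 with p53 knockdown, 1.70 with BRD7 knockdown and 1.02 in the control.

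Most of the 47 genes were lower in the senescent libraries than in the control, though few passed the test. Of the 47 genes 46 had a log2 change below 0, with a median of −1.02 against 0.03 over all genes, and 5 fell at an adjusted p under 0.05 (limma, Benjamini-Hochberg over 12481 genes), where 7.10% of all genes fell. Limma called 0 of the 47 as higher, against 7.95% of all genes. Here and below, rose and fell are used only for genes that limma called at this threshold. The 5 that fell were KIF20A (log2 −2.08, SE 0.49, adjusted p = 0.0446), ASPM (log2 −1.67, SE 0.39, adjusted p = 0.0453), FOXM1 (log2 −1.58, SE 0.39, adjusted p = 0.0499), NDC80 (log2 −1.44, SE 0.35, adjusted p = 0.0482) and SMC4 (log2 −1.44, SE 0.33, adjusted p = 0.0437). These 5 have roles in different steps, a cytokinesis kinesin, a spindle pole protein, a transcription factor, a kinetochore subunit and a condensin subunit. All 5 adjusted p-values were close to 0.05, so the calls do not set these genes or steps apart. Both senescent libraries lay below the control for 45 of the 47 genes. MKI67 had the second lowest change and was not called (log2 −1.84, SE 0.52, adjusted p = 0.069). PTTG1 (log2 −0.00, SE 0.24, adjusted p = 1) and AURKA (log2 0.07, SE 0.46, adjusted p = 0.944) had changes close to 0. Their intervals (PTTG1 95% interval −0.61 to 0.60, AURKA 95% interval −1.06 to 1.21) still allow a change in either direction. The count was 9 without LncRNA-OIS1 replicate 4, where 14.5% of all genes fell. It was 0 without senescent replicate 1, senescent replicate 2 or LncRNA-OIS1 replicate 3, where 0.706%, 0.650% and 5.56% of all genes fell.

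All 47 genes had higher mean values in each of the 3 knockdown groups than in the senescent group, including genes not said to rise below. With p53 knockdown 30 of the 47 genes rose, against 2.27% of all genes, and the median change was 2.25, against 0.00 over all genes. With LncRNA-OIS1 knockdown the median was 1.31, against −0.02 over all genes, and all 47 changes were above 0, against 47.6% of all genes. Limma called 0 of them (adjusted p 0.0788 to 0.324) and 0% of all genes, while 46 had an unadjusted p under 0.05, as did 10.5% of all genes in that direction. With BRD7 knockdown the median was 1.70, limma called 0 of the 47 and 0% of all genes as higher, and 46 had an unadjusted p under 0.05 against 6.81% of all genes. In the mean of the 3 knockdown groups, each group weighted equally, 44 rose against 3.33% of all genes, with a median of 1.75 against −0.02. The 3 not called were AURKA (log2 1.03, SE 0.32, adjusted p = 0.112), TOP2A (log2 1.50, SE 0.36, adjusted p = 0.0652) and KIF23 (log2 1.45, SE 0.31, adjusted p = 0.0532). The comparisons share the senescent libraries.

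These calls rest on few libraries. Without senescent replicate 1, senescent replicate 2, or LncRNA-OIS1 replicate 1, 2 or 3, limma called 0 genes of the 47 for p53 knockdown and 0 for the 3 groups, and 0 of all genes. Without LncRNA-OIS1 replicate 4 the counts were 45 for p53 knockdown, against 9.66% of all genes, and 46 for the 3 groups, against 9.56%. In that fit 2 of the 47, PTTG1 and FOXM1, rose with LncRNA-OIS1 knockdown, against 1.59% of all genes. In every one of these fits all 47 changes against senescent stayed above 0.

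**Figure D3:**
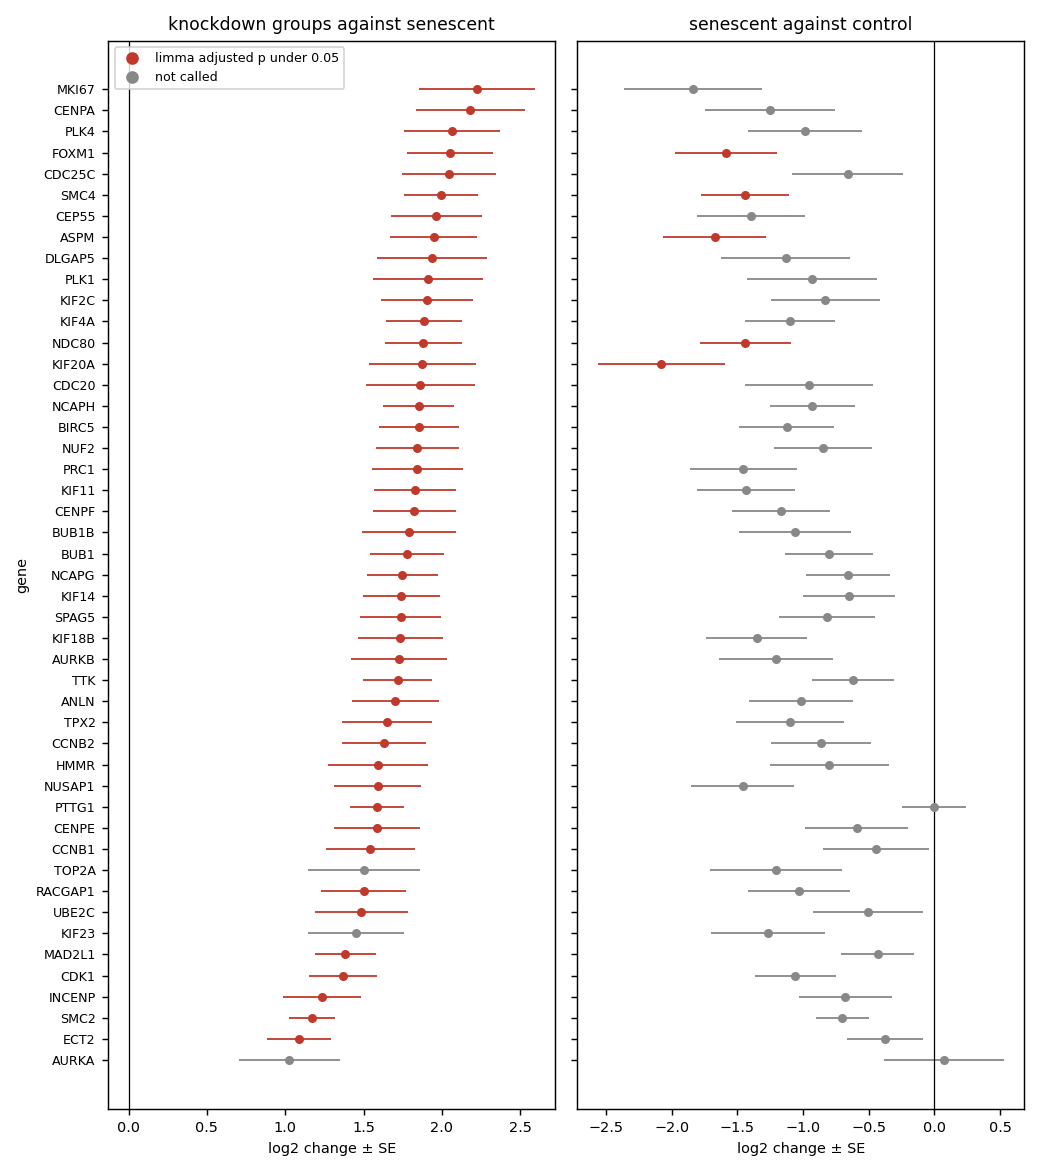
Log2 change ± SE for each of the 47 genes in the mean of the 3 knockdown groups against senescent (left) and in senescent against control (right), ordered by the left panel. Red points passed an adjusted p of 0.05, 44 on the left and 5 on the right.

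Of the 7 mitotic kinesins, motors that move along or reshape spindle microtubules, 6 rose in the mean of the 3 knockdown groups and 5 with p53 knockdown. KIF20A (ENSG00000112984), which acts at the central spindle in cytokinesis, stood at 621, 1126, 751 and 1313 with LncRNA-OIS1 knockdown, 1357 with p53 knockdown and 1076 with BRD7 knockdown, against 349 and 258 in the senescent libraries and 1267 in the control. KIF20A rose in the 3 groups (log2 1.87, SE 0.34, adjusted p = 0.0418) but exceeded the control only in LncRNA-OIS1 replicate 4 and with p53 knockdown. KIF11 (ENSG00000138160) pushes spindle poles apart. KIF11 had 936, 1467, 1017 and 1555 in the LncRNA-OIS1 libraries, 2132 in the p53 library and 1545 in the BRD7 library. In the senescent libraries KIF11 had 514 and 389, and in the control 1209. KIF23 (ENSG00000137807), a subunit of the centralspindlin complex, had 1155, 2143, 1024 and 1257 with LncRNA-OIS1 knockdown, 2798 with p53 knockdown and 2305 with BRD7 knockdown, against 800.4 and 701 in the senescent libraries and 1801 in the control. The lowest knockdown library for KIF23 was LncRNA-OIS1 replicate 3, still above both senescent libraries. KIF4A (ENSG00000090889), a chromosome-bound kinesin, stood at 521, 834, 604 and 821 with LncRNA-OIS1 knockdown, 1121 with p53 knockdown and 785 with BRD7 knockdown, against 258 and 202 in the senescent libraries and 489.6 in the control. KIF4A rose in the 3 groups (log2 1.89, SE 0.24, adjusted p = 0.035), and all 6 knockdown libraries were above the control. KIF2C (ENSG00000142945), which depolymerises microtubules at centromeres, had 553, 1039, 746 and 982 in the LncRNA-OIS1 libraries, 1549 in the p53 library and 1121 in the BRD7 library. In the senescent libraries KIF2C had 343 and 259.8, and in the control 531. KIF14 (ENSG00000118193), a cytokinesis motor, had 488, 802, 666 and 856 with LncRNA-OIS1 knockdown, 1193 with p53 knockdown and 971 with BRD7 knockdown, against 299 and 258 in the senescent libraries and 436 in the control. KIF2C and KIF14 were above the control in all 6 knockdown libraries. KIF18B (ENSG00000186185), a motor on astral microtubules, had 499, 817, 574 and 423 with LncRNA-OIS1 knockdown, 1300.4 with p53 knockdown and 839 with BRD7 knockdown, against 275 and 237 in the senescent libraries and 653 in the control. For KIF18B the lowest knockdown library was LncRNA-OIS1 replicate 4 and not replicate 1.

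All 5 kinetochore and centromere genes rose both with p53 knockdown and in the mean of the 3 groups, and 1, NDC80, was called as lower in the senescent libraries. CENPA, CENPE, CENPF and NUF2 also lay below the control in both senescent libraries but were not called. CENPA (ENSG00000115163), the histone H3 variant that marks centromeres, stood at 135, 220.1, 150.3 and 213 with LncRNA-OIS1 knockdown, 325 with p53 knockdown and 179 with BRD7 knockdown, against 66.6 and 34.4 in the senescent libraries and 114 in the control. CENPA had the highest LncRNA-OIS1 change of the 47 (log2 1.88, SE 0.35, adjusted p = 0.0827) and the widest gap of the 47 between its 2 senescent libraries. CENPE (ENSG00000138778), a kinetochore motor, had 970.3, 1946, 1207 and 1335 with LncRNA-OIS1 knockdown, 2594 with p53 knockdown and 1588 with BRD7 knockdown, against 625 and 550.3 in the senescent libraries and 884 in the control. CENPE changed least in this group (log2 1.17, SE 0.28, adjusted p = 0.0966 for LncRNA-OIS1), and its control value lay below each knockdown library. CENPF (ENSG00000117724), a large kinetochore protein, had 2244, 4357, 2828 and 3082 in the LncRNA-OIS1 libraries, 6464 in the p53 library and 4093 in the BRD7 library. In the senescent libraries CENPF had 1309 and 1134, and in the control 2743. NUF2 (ENSG00000143228) and NDC80 (ENSG00000080986) are subunits of the complex that binds microtubules. NUF2 had 449.6, 769.9, 503 and 553 with LncRNA-OIS1 knockdown, 1252 with p53 knockdown and 780.2 with BRD7 knockdown, against 274 and 189 in the senescent libraries and 410.1 in the control. NDC80 had 407, 679.6, 502 and 671 with LncRNA-OIS1 knockdown, 1033 with p53 knockdown and 721 with BRD7 knockdown, against 219 and 186 in the senescent libraries and 547 in the control. For both genes the p53 library was far above the rest, and BRD7 knockdown was above every LncRNA-OIS1 library.

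Of the 6 condensin and chromosome structure genes 5 rose in the mean of the 3 groups and 4 with p53 knockdown. SMC2 (ENSG00000136824) and SMC4 (ENSG00000113810) are the core ATPases of condensin. SMC2 had 1243, 1621, 1348 and 1633 with LncRNA-OIS1 knockdown, 2242 with p53 knockdown and 1619 with BRD7 knockdown, against 815 and 733 in the senescent libraries and 1257 in the control. SMC4 had 2296, 3908, 2744 and 3255 with LncRNA-OIS1 knockdown, 5881 with p53 knockdown and 3127 with BRD7 knockdown, against 1083 and 842 in the senescent libraries and 2594 in the control. SMC4 had larger changes than SMC2, at 2.62 and 1.54 with p53 knockdown and −1.44 and −0.70 in senescent against control, a contrast between genes that was not tested. NCAPG (ENSG00000109805) and NCAPH (ENSG00000121152) are subunits specific to condensin I. NCAPG had 758, 1284, 909.7 and 1071 in the LncRNA-OIS1 libraries, 1899.6 in the p53 library and 1275 in the BRD7 library. In the senescent libraries NCAPG had 439 and 362, and in the control 629. NCAPH had 358, 529.9, 434 and 567 with LncRNA-OIS1 knockdown, 807 with p53 knockdown and 612 with BRD7 knockdown, against 193 and 149 in the senescent libraries and 323 in the control. All 6 knockdown libraries were above the control for both. TOP2A (ENSG00000131747), the topoisomerase that untangles sister chromatids, had 4043, 8471, 5658 and 3793 with LncRNA-OIS1 knockdown, 11146 with p53 knockdown and 8553 with BRD7 knockdown, against 3207 and 2437 in the senescent libraries and 6449 in the control. TOP2A was lowest among the knockdown libraries in LncRNA-OIS1 replicate 4. MKI67 (ENSG00000148773), the Ki-67 protein of the chromosome surface and a common proliferation marker, had 2574, 5049.7, 2960.2 and 5658 with LncRNA-OIS1 knockdown, 6931 with p53 knockdown and 5028 with BRD7 knockdown, against 1231 and 972 in the senescent libraries and 3914 in the control. MKI67 had the largest change of the 47 in the mean of the 3 groups (log2 2.22, SE 0.37, adjusted p = 0.0369), and LncRNA-OIS1 replicate 4 was its second highest library.

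All 7 genes of the spindle checkpoint and anaphase onset rose in the mean of the 3 groups, and BUB1, TTK, MAD2L1 and PTTG1 rose with p53 knockdown. BUB1B, CDC20 and UBE2C were higher with p53 knockdown too, at 4.60, 5.92 and 4.08 times the senescent mean, but were not called. BUB1 (ENSG00000169679) and BUB1B (ENSG00000156970) are checkpoint proteins at unattached kinetochores. BUB1 had 899.7, 1603, 1063 and 1116 with LncRNA-OIS1 knockdown, 2687 with p53 knockdown and 1571 with BRD7 knockdown, against 526 and 460.2 in the senescent libraries and 859 in the control. BUB1B had 540.0, 867, 619 and 1021 with LncRNA-OIS1 knockdown, 1211 with p53 knockdown and 821 with BRD7 knockdown, against 304 and 223 in the senescent libraries and 544 in the control. The BUB1 control value lay below each knockdown library, and for BUB1B 5 of the 6 were above the control. TTK (ENSG00000112742), the kinase also called MPS1, had 544, 886, 626 and 649 in the LncRNA-OIS1 libraries, 1361 in the p53 library and 918 in the BRD7 library. In the senescent libraries TTK had 325 and 252, and in the control 439.6. MAD2L1 (ENSG00000164109), which holds back the anaphase-promoting complex, had 639.8, 913, 676 and 832 with LncRNA-OIS1 knockdown, 1466 with p53 knockdown and 919 with BRD7 knockdown, against 439.8 and 338 in the senescent libraries and 521 in the control. MAD2L1 changed least in this group with LncRNA-OIS1 knockdown (log2 0.97, SE 0.19, adjusted p = 0.0856). CDC20 (ENSG00000117399), the activator of that complex, had 902, 1907, 1140.1 and 1739.9 with LncRNA-OIS1 knockdown, 3214 with p53 knockdown and 1703 with BRD7 knockdown, against 624 and 462 in the senescent libraries and 1042 in the control. UBE2C (ENSG00000175063), its ubiquitin-conjugating enzyme, had 387, 745, 512 and 667 with LncRNA-OIS1 knockdown, 1054 with p53 knockdown and 626 with BRD7 knockdown, against 294 and 223 in the senescent libraries and 364 in the control. All 6 knockdown libraries exceeded both senescent libraries for CDC20 and UBE2C. PTTG1 (ENSG00000164611), the securin that restrains separase until anaphase, had 951, 1363, 1140.3 and 1372 with LncRNA-OIS1 knockdown, 2048 with p53 knockdown and 1299.9 with BRD7 knockdown, against 502 and 476 in the senescent libraries and 489.9 in the control. The senescent and control values of PTTG1 lay close together, and each knockdown library was well above all 3.

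All 6 genes of mitotic entry rose in the mean of the 3 groups and 4 rose with p53 knockdown, and FOXM1 was called as lower in the senescent libraries. The others of this group also lay below the control in both senescent libraries but were not called. CDK1 (ENSG00000170312), the kinase that starts mitosis, had 801, 1180.0, 837 and 863 with LncRNA-OIS1 knockdown, 1458 with p53 knockdown and 1201 with BRD7 knockdown, against 538 and 379 in the senescent libraries and 941 in the control. CDK1 changed least in this group (log2 1.01, SE 0.22, adjusted p = 0.0881 for LncRNA-OIS1), and only 3 of the 6 knockdown libraries were above the control. CCNB1 (ENSG00000134057) and CCNB2 (ENSG00000157456) are its cyclin partners. CCNB1 had 1271, 2456, 1646 and 1982 in the LncRNA-OIS1 libraries, 3708 in the p53 library and 2415 in the BRD7 library. In the senescent libraries CCNB1 had 1004 and 746, and in the control 1178. CCNB2 had 449.9, 784, 562 and 768 with LncRNA-OIS1 knockdown, 1188 with p53 knockdown and 754 with BRD7 knockdown, against 299 and 237 in the senescent libraries and 485 in the control. CCNB1 missed the threshold with p53 knockdown (adjusted p = 0.0536) and CCNB2 passed it (0.0483). CDC25C (ENSG00000158402), the phosphatase that activates CDK1, had 88.3, 175, 131 and 155 with LncRNA-OIS1 knockdown, 264 with p53 knockdown and 183 with BRD7 knockdown, against 48.6 and 41.8 in the senescent libraries and 71.3 in the control. CDC25C was above the control in each knockdown library. PLK1 (ENSG00000166851), a kinase of entry and spindle formation, had 628, 1271, 770.0 and 1193 with LncRNA-OIS1 knockdown, 1857 with p53 knockdown and 1057 with BRD7 knockdown, against 397 and 265 in the senescent libraries and 619 in the control. FOXM1 (ENSG00000111206), a transcription factor of late cell cycle genes, had 807, 1184, 872 and 1411 with LncRNA-OIS1 knockdown, 1830.3 with p53 knockdown and 1156 with BRD7 knockdown, against 369.8 and 267 in the senescent libraries and 943 in the control. FOXM1 had the highest LncRNA-OIS1 change of this group (log2 1.73, SE 0.28, adjusted p = 0.0788), and 4 knockdown libraries, with LncRNA-OIS1 replicates 1 and 3 below, exceeded the control.

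The 3 genes of the chromosomal passenger complex, which corrects wrong attachments at centromeres, rose in the mean of the 3 groups, and AURKB and BIRC5 rose with p53 knockdown. AURKB (ENSG00000178999), its kinase, had 266, 575, 351 and 375 with LncRNA-OIS1 knockdown, 867 with p53 knockdown and 471 with BRD7 knockdown, against 173 and 152 in the senescent libraries and 373 in the control. INCENP (ENSG00000149503), its scaffold, had 408, 672, 503 and 682 with LncRNA-OIS1 knockdown, 900.1 with p53 knockdown and 697 with BRD7 knockdown, against 329 and 270.1 in the senescent libraries and 477 in the control. INCENP changed least of the 3 (log2 1.24, SE 0.25, adjusted p = 0.04999). BIRC5 (ENSG00000089685), the subunit survivin, had 1371, 2430.1, 1778 and 1500.1 with LncRNA-OIS1 knockdown, 3636 with p53 knockdown and 2435 with BRD7 knockdown, against 779 and 607 in the senescent libraries and 1499 in the control. For AURKB and BIRC5 the LncRNA-OIS1 replicate 2 value was well above replicates 1, 3 and 4.

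Of the 9 genes of spindle assembly and poles 8 rose in the mean of the 3 groups, 4 rose with p53 knockdown and ASPM was called as lower in the senescent libraries. Apart from AURKA, the others of this group also lay below the control in both senescent libraries but were not called. TPX2 (ENSG00000088325), a spindle assembly factor that activates Aurora A, had 1556, 3062, 2082 and 2567 with LncRNA-OIS1 knockdown, 4177 with p53 knockdown and 2985 with BRD7 knockdown, against 1106 and 847 in the senescent libraries and 2073 in the control. ASPM (ENSG00000066279), a spindle pole protein, had 1410.2, 2802, 1833 and 2287 with LncRNA-OIS1 knockdown, 4016 with p53 knockdown and 2624 with BRD7 knockdown, against 760.0 and 679 in the senescent libraries and 2290.3 in the control. ASPM had the highest LncRNA-OIS1 change of this group (log2 1.49, SE 0.28, adjusted p = 0.0827), though 3 of 6 knockdown libraries were below the control. NUSAP1 (ENSG00000137804), which bundles microtubules near chromosomes, had 715, 1312, 839.9 and 961 with LncRNA-OIS1 knockdown, 1351 with p53 knockdown and 1206 with BRD7 knockdown, against 456 and 320.0 in the senescent libraries and 1049 in the control. DLGAP5 (ENSG00000126787), which stabilises kinetochore fibres, had 644, 1502, 806 and 1068 in the LncRNA-OIS1 libraries, 1792 in the p53 library and 1349 in the BRD7 library. Senescent values were 385 and 309.9, and the control value was 757. LncRNA-OIS1 replicates 1, 3 and 4 were below the control for NUSAP1, and replicate 1 for DLGAP5. HMMR (ENSG00000072571) and SPAG5 (ENSG00000076382) are spindle-associated proteins. HMMR had 483, 976, 731 and 844 with LncRNA-OIS1 knockdown, 1303 with p53 knockdown and 1030.0 with BRD7 knockdown, against 402 and 271 in the senescent libraries and 576 in the control. SPAG5 had 316, 551, 390.3 and 444 with LncRNA-OIS1 knockdown, 711 with p53 knockdown and 523 with BRD7 knockdown, against 190.1 and 137 in the senescent libraries and 284 in the control. AURKA (ENSG00000087586), the kinase of centrosomes and poles, was the 1 gene whose knockdown and senescent libraries overlapped. AURKA had 733, 1461, 1072 and 1532 with LncRNA-OIS1 knockdown, 2149 with p53 knockdown and 1451 with BRD7 knockdown, against 817 and 693 in the senescent libraries and 715 in the control. LncRNA-OIS1 replicate 1 lay between the senescent libraries for AURKA, and the 2 senescent libraries lay on both sides of the control. PLK4 (ENSG00000142731), the kinase that starts centriole duplication, had 561, 1094, 731 and 556 with LncRNA-OIS1 knockdown, 1825 with p53 knockdown and 944 with BRD7 knockdown, against 284 and 229 in the senescent libraries and 505 in the control. PLK4 had the largest change with p53 knockdown of the 47 (log2 2.84, SE 0.44, adjusted p = 0.0467). PRC1 (ENSG00000198901), which bundles central spindle microtubules, had 1431, 2716, 1862 and 2298 in the LncRNA-OIS1 libraries, 3936 in the p53 library and 2487 in the BRD7 library. Senescent values were 897 and 634, and the control value was 2067.

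All 4 cytokinesis genes rose in the mean of the 3 groups, and ANLN and CEP55 rose with p53 knockdown. ANLN (ENSG00000011426), a scaffold of the contractile ring, had 3620.3, 6931, 5267 and 4241 with LncRNA-OIS1 knockdown, 10273 with p53 knockdown and 7163 with BRD7 knockdown, against 2451 and 1941 in the senescent libraries and 4409.7 in the control. ECT2 (ENSG00000114346), the exchange factor that activates RhoA at the cleavage site, had 1512, 2445, 1659.8 and 2035 with LncRNA-OIS1 knockdown, 3222 with p53 knockdown and 2329 with BRD7 knockdown, against 1135 and 1142 in the senescent libraries and 1477 in the control. ECT2 had the smallest p53 change of the 47 (log2 1.50, SE 0.29, adjusted p = 0.0544) and was the only gene for which senescent replicate 1 was not above replicate 2, against 48.0% of all genes above. RACGAP1 (ENSG00000161800), the partner of KIF23 in centralspindlin, had 1109, 2159, 1373 and 1679 with LncRNA-OIS1 knockdown, 3078 with p53 knockdown and 2285 with BRD7 knockdown, against 851 and 716 in the senescent libraries and 1595 in the control. CEP55 (ENSG00000138180), which recruits the abscission machinery, had 751, 1471, 835 and 1003 with LncRNA-OIS1 knockdown, 2169.6 with p53 knockdown and 1350.0 with BRD7 knockdown, against 409 and 324 in the senescent libraries and 957 in the control. CEP55 had larger changes than ECT2, 1.43 against 0.72 with LncRNA-OIS1 knockdown and −1.39 against −0.38 in senescent against control, which was not tested between the genes.

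**Figure D4:**
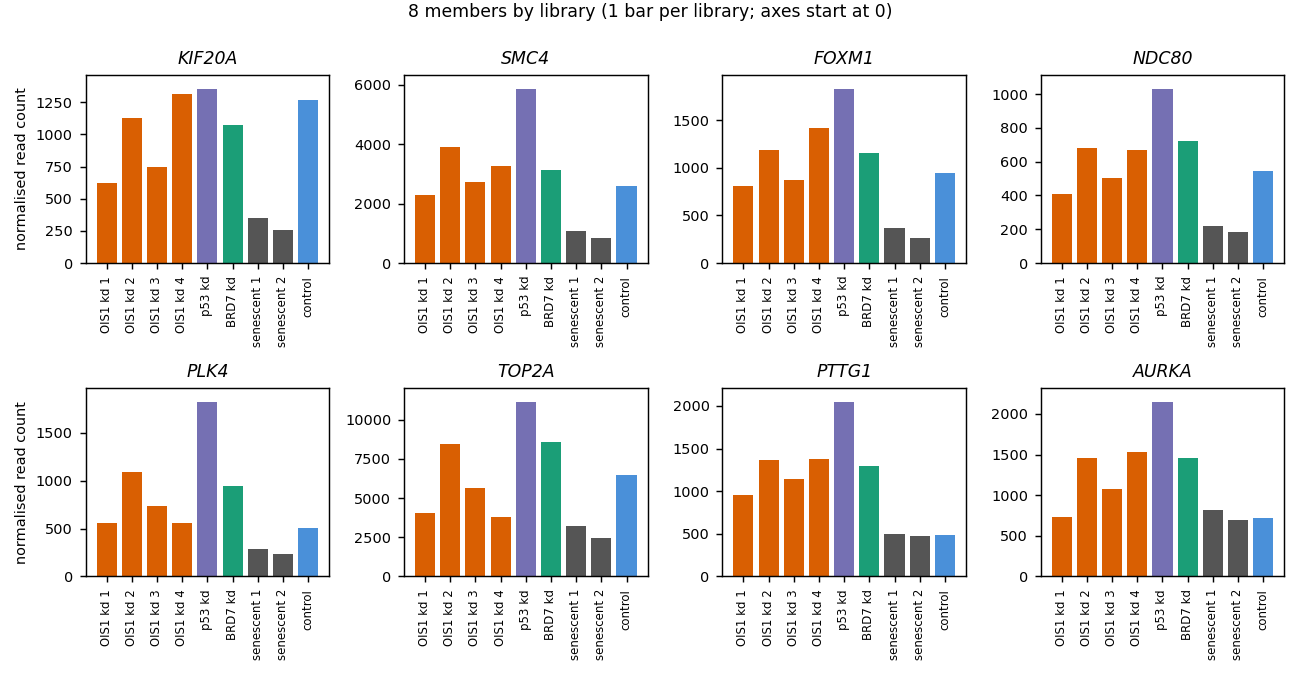
Normalised read count (y axis, from 0) of 8 genes in each library, 1 bar per library, coloured by group. KIF20A is high in the control at 1267, PTTG1 and AURKA are at senescent levels in the control, and PLK4 and TOP2A are low in LncRNA-OIS1 replicate 4.

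Set against the control, LncRNA-OIS1 knockdown gave a median change of 0.35, against 0.05 over all genes, with 37 of the 47 above 0. PTTG1 alone rose (log2 1.28, SE 0.22, adjusted p = 0.0237), where 5.38% of all genes did. PTTG1 was not called in this comparison without LncRNA-OIS1 replicate 2 or 3, and the count was 0 in both fits. A fit without 1 senescent library leaves 1 in that group, and its calls are not given for this comparison. In the fits without LncRNA-OIS1 replicate 2 and replicate 3, 2.89% and 3.53% of all genes rose against the control. With all libraries the lowest change was that of KIF20A (log2 −0.48, SE 0.44, adjusted p = 0.529). All 6 knockdown libraries were above the control for 20 of the 47 genes, against 28.9% of all genes. The members' median fold over the control was 0.915, 1.62, 1.14 and 1.41 in LncRNA-OIS1 replicates 1 to 4, 2.33 with p53 knockdown and 1.58 with BRD7 knockdown.

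The knockdowns were then set against each other. The 47 log2 changes with LncRNA-OIS1 against p53 knockdown were below 0, median −0.94 against −0.02 over all genes, from −0.53 for NUSAP1 to −1.37 for PLK4. Limma called 0 of them as lower and 0% of all genes, while 29 had an unadjusted p under 0.05, against 5.59% of all genes. With LncRNA-OIS1 against BRD7 knockdown the median was −0.38 and limma called 0 as lower, with 0 at an unadjusted p under 0.05, where 0% and 1.14% of all genes were. The p53 and BRD7 groups have 1 library each, so they borrow their spread from the replicated groups.

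Each LncRNA-OIS1 hairpin has 1 library, so its level has no replicate check. Replicate 1 was the lowest of the 4 for 43 of the 47 genes, against 22.0% of all genes tested, and the exceptions were KIF23, KIF18B, TOP2A and PLK4. Replicate 2 was the highest for 36, against 18.8%, and replicate 4 for the other 11, against 36.3%. Those 11 were KIF20A, KIF11, KIF14, SMC2, NCAPH, MKI67, BUB1B, PTTG1, FOXM1, INCENP and AURKA. BRD7 knockdown was above all 4 LncRNA-OIS1 libraries for 17 genes, against 14.8% of all genes, among them KIF23, KIF14, TOP2A and RACGAP1. Within the senescent pair, replicate 1 was above replicate 2 for 46 of the 47, against 48.0% of all genes.

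Of 126 other tested genes of mitosis or its control, 67 rose and 1 fell in the mean of the 3 knockdown groups, with a median of 1.16 against 1.75 for the 47. Of all 12481 genes tested, 416 rose, 3.33%, and 348 fell. The counts for each list below stand beside the same shares. Of 5 other kinesins 4 rose, led by KIF15 (log2 1.87, SE 0.35, adjusted p = 0.0423), a spindle motor. Of 31 other kinetochore and centromere genes 20 rose, led by SKA1 (log2 1.96, SE 0.23, adjusted p = 0.035), SKA3 (log2 1.82, SE 0.22, adjusted p = 0.035) and KNL1 (log2 1.80, SE 0.27, adjusted p = 0.035), which build the outer kinetochore. Of 14 other condensin and cohesin genes 12 rose, among them NCAPG2 (log2 1.84, SE 0.22, adjusted p = 0.035), a condensin II subunit. SGO1 (log2 1.81, SE 0.27, adjusted p = 0.0354), which protects centromeric cohesion, and CDCA5 (log2 1.74, SE 0.25, adjusted p = 0.035), the cohesion factor sororin, rose as well. Of 17 other kinases, cyclins and phosphatase regulators 11 rose, led by HASPIN (log2 2.03, SE 0.41, adjusted p = 0.0497), CCNA2 (log2 1.94, SE 0.27, adjusted p = 0.035) and NEK2 (log2 1.94, SE 0.30, adjusted p = 0.0354). Of 24 other spindle, centriole and cytokinesis genes 14 rose, led by CKAP2L (log2 1.93, SE 0.17, adjusted p = 0.035). The 16 genes of the anaphase-promoting complex list were flat, with a median of 0.04, and only FBXO5 (log2 1.43, SE 0.25, adjusted p = 0.0379), an inhibitor of the complex, and UBE2S (log2 0.91, SE 0.16, adjusted p = 0.0379), its ubiquitin chain elongating enzyme, rose.

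Regulators of these genes were given as the last list. Of 19 MuvB, E2F and pocket protein regulators, 4 rose and 1 fell in the mean of the 3 knockdown groups, median 0.40. Of all 12481 genes 3.33% rose and 348 fell. MYBL2, the B-Myb partner of MuvB, stood at 353, 589.9, 319 and 516 with LncRNA-OIS1 knockdown, 528 with p53 knockdown and 419 with BRD7 knockdown, against 149 and 137 in the senescent libraries and 539.8 in the control. MYBL2 rose in the 3 groups (log2 1.68, SE 0.28, adjusted p = 0.0374) and fell in the senescent libraries (log2 −1.92, SE 0.40, adjusted p = 0.0345). LIN9, a core MuvB subunit, rose (log2 1.35, SE 0.22, adjusted p = 0.0365). CDKN1A, which encodes the CDK inhibitor p21, stood at 15474, 11146, 12588 and 6989.6 with LncRNA-OIS1 knockdown, 2721 with p53 knockdown and 9406 with BRD7 knockdown, against 18746 and 22373 in the senescent libraries and 3578 in the control. CDKN1A rose in the senescent libraries (log2 2.52, SE 0.45, adjusted p = 0.0251) and fell in the 3 knockdown groups (log2 −1.64, SE 0.32, adjusted p = 0.0476) and with p53 knockdown (log2 −2.91, SE 0.45, adjusted p = 0.0467). The p53 library, the lowest for CDKN1A, was the highest for all 47 genes, and the senescent libraries were the highest for CDKN1A. Other libraries did not follow this order. The control had less CDKN1A than the BRD7 library, but its median of the 47 over the senescent mean was lower, 1.02 against 1.70. Among the LncRNA-OIS1 libraries CDKN1A was lowest in replicate 4 and highest in replicate 1, while replicate 2 was the highest for 36 of the 47 genes. The part of CDKN1A in the mitotic values was not tested.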

How the data were processed

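PolyA RNA-seq libraries were prepared with a TruSeq kit, per the labels' protocols. The submitters' processing notes list TopHat2, HTSeq and hg19, with no role or version. The deposited table holds a signal per gene and library, a read count that the authors had quantile normalised and floored at 20, as its name and values show. Every column totals 14916466.5, so depth is unknown. Whether reads were counted by strand is not given in the sources. Values were tested as log2 of the deposited signal, with no pseudocount, using limma 3.58.1 in R 4.3.3. All 9 libraries entered 1 fit of 5 groups with 4 residual degrees of freedom and a variance trend, for 12481 genes with a highest value of at least 40. Two-sided p-values were adjusted by Benjamini-Hochberg across the whole table, with 0.05 as the threshold. A group with 1 library borrows its spread from the other groups. The members, the role groups, the 127 other genes and the marker lists were chosen with earlier results of these data known. Values in every library are given for called members and for the highest and lowest LncRNA-OIS1 change of each role. Up to 3 genes of each other list are named per comparison. One gene of the lists is not reported here. The fit was tested on simulated data. Alternatives were adding 10 or 50 before the log, dropping the filter, filtering on a mean of 80, scaling by median of ratios, no trend, a replicate block, leaving out each replicate, fitting the senescent and LncRNA-OIS1 libraries alone, and the 6 knockdown libraries as 1 group, the last chosen after seeing the data.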

Additional observations from a re-analysis of the deposited data

How the results depend on the processing

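The 47 genes kept their direction against senescent under every alternative run, and no median of the 47 moved by more than the spread between replicates. Counts of called genes did move. For senescent against control the count was 5, with 3 at log2(value + 50), 0 with no filter and 2 without a variance trend. For p53 knockdown it was 30, with 19 with no filter and 0 without a trend. An alternative added after seeing the data treated the 6 knockdown libraries as 1 group. It gave 28 against 44 for the mean of the 3 groups. The share of all genes called under these settings is not given here. The counts therefore do not show whether calls were lost across the whole table. Leaving out 1 library at a time gave 0 to 9 calls for senescent against control, 0 to 45 for p53 knockdown, 0 to 46 for the 3 groups, 0 to 2 for LncRNA-OIS1 knockdown and 0 to 1 for LncRNA-OIS1 knockdown against control. For the first 4 of these, the highest count came without LncRNA-OIS1 replicate 4, where 14.5%, 9.66%, 9.56% and 1.59% of all genes were called in the same direction. The cause was not tested, although such a fit has 1 library fewer. For LncRNA-OIS1 knockdown against control the count was 1 without LncRNA-OIS1 replicate 1 or 4, where 3.76% and 12.7% of all genes rose. It was 0 without LncRNA-OIS1 replicate 2 or 3, where 2.89% and 3.53% of all genes rose. Both genes near 0 in senescent against control changed sign, AURKA being at −0.045 without senescent replicate 1 and 0.19 without replicate 2, and PTTG1 at −0.042 and 0.036 in the same fits. The replicate numbers did not pair the senescent and LncRNA-OIS1 libraries (r = −0.07 and −0.10 over 12481 genes), and the fit with the replicate block called 0 of the 47 for LncRNA-OIS1 knockdown. Depth is hidden by the normalisation.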

Other observations

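Of the 126 other genes 4 rose in the senescent libraries, against 7.95% of all genes, and 14 fell, against 7.10%. The 4 were CDKN1A, described above, CENPT, E2F7 and ANAPC7. CENPT, an inner kinetochore protein that links the centromere to the microtubule-binding complex, stood at 364, 424, 467 and 349 with LncRNA-OIS1 knockdown, 398 with p53 knockdown and 467 with BRD7 knockdown, against 641 and 689 in the senescent libraries and 357 in the control. CENPT rose in the senescent libraries (log2 0.90, SE 0.21, adjusted p = 0.0448) and was lower in the mean of the 3 knockdown groups without passing the threshold (log2 −0.66, SE 0.15, adjusted p = 0.0589). E2F7, a repressor of cell cycle genes, stood at 2368, 2462, 3029 and 1625 with LncRNA-OIS1 knockdown, 4023 with p53 knockdown and 2942 with BRD7 knockdown, against 3224 and 3287 in the senescent libraries and 247 in the control. E2F7 rose in the senescent libraries (log2 3.72, SE 0.34, adjusted p = 0.0049), and its change in the mean of the 3 knockdown groups did not pass the threshold (log2 −0.11, SE 0.24, adjusted p = 0.827). ANAPC7, a subunit of the anaphase-promoting complex, rose slightly in the senescent libraries (log2 0.47, SE 0.11, adjusted p = 0.0412).

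WEE1, the kinase that inhibits CDK1, fell in the senescent libraries (log2 −1.69, SE 0.17, adjusted p = 0.00656) and also with LncRNA-OIS1 knockdown against the control (log2 −1.13, SE 0.16, adjusted p = 0.0143), although it rose in the 3 knockdown groups against senescent (log2 0.67, SE 0.12, adjusted p = 0.042). These genes were picked after their values were seen.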
